A study of Mus musculus with 4 samples.

Results

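The core circadian clock genes are a set of 10 transcripts, Arntl, Npas2, Clock, Cry1, Cry2, Per1, Per2, Per3, Nr1d1 and Nr1d2, and all 10 were found among the 24411 gene symbols of the deposited count table. They were picked by name for their place in the clock, and the set was selected on levels in these same libraries that were already known, so the levels below are a description and carry no test of their own. The tissue was the mucous sublingual salivary gland. The mice were females of the C57BL/6J background strain that lacked both copies of Nkx2-3 (genotype Nkx2.3-/-). The groups were glands at 8 weeks of age (n = 2 libraries, replicates 1 and 2) and at 32 weeks of age (n = 2 libraries, replicates 3 and 4), with the knockout shared by both ages and no wild-type gland analysed here. Whether the libraries came from separate animals is not stated, so p-values rest on a spread between libraries that may be technical. The sources used here give no hour at which the glands were taken, so an age difference and a difference in collection hour cannot be told apart.

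The circadian clock is a transcriptional feedback loop that runs in nearly every mammalian cell. ARNTL (BMAL1) pairs with CLOCK or its paralog NPAS2, binds E-box elements and switches on the Per, Cry and Nr1d genes. The PER and CRY proteins return to the nucleus and repress the ARNTL pairs, while the NR1D1 and NR1D2 receptors (REV-ERB alpha and beta) repress Arntl and Npas2 through ROR elements. As a result Arntl, Npas2 and, more weakly, Clock transcripts peak around the end of the night in many mouse tissues. Nr1d1 and Nr1d2 peak in the day and the Per genes later, towards dusk, nearly opposite to Arntl. Cry1 peaks at night and Cry2 cycles weakly. Below, Arntl, Npas2 and Clock are called the dawn genes and Nr1d1, Nr1d2, Per1, Per2 and Per3 the dusk genes.

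Promoter sequences are shown first because the loop acts through short elements near the start sites of its own genes. RefSeq windows of 300 bases (250 before and 50 after a start site, build GRCm38.p6) matched 9 of the 10 members by symbol, in 13 windows. Both strands were searched for the E-box CACGTG, the E'-box variant CACGTT, the D-box TTATGTAA bound by PAR bZIP factors, the ROR element cores TAGGTCA and TGGGTCA, and the cAMP response element TGACGTCA. None of these letter strings overlapped another in the windows of the members. Of all 32851 windows in the table, 7.15% held the E-box, 4.68% the E'-box variant, 0.938% the D-box, 2.61% and 3.98% the ROR cores in that order, and 1.79% the cAMP element. A match is a description of the letters in the window and not a bound site. The stretches below run 5′ to 3′ on the gene's strand, with each matched element in capitals. A further E'-box lay before Cry2, and the windows of Npas2, Clock and Nr1d2 held none of the strings. Per2 was the member that matched no window, so it was not searched. The stretches show a ROR core just after an Arntl start site, both E-box types before Cry1, an E-box before Per1, 2 D-boxes before Per3 and an E'-box before Nr1d1.

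Arntl, chr7:113207531-113207557, plus strand, around the ROR core 31 bases after the start:
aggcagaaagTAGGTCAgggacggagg
Cry1, chr10:85185055-85185304, minus strand:
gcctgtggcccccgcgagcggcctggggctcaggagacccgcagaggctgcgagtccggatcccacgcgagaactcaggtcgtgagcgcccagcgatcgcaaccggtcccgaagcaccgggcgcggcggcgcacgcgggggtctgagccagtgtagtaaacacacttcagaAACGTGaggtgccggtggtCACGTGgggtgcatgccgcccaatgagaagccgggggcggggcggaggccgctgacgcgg
Per1, chr11:69098699-69098948, plus strand:
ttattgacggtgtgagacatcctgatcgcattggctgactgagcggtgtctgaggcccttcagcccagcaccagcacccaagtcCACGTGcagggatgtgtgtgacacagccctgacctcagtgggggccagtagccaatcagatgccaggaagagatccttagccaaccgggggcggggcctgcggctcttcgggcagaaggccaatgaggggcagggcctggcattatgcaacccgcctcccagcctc
Per3, chr4:151044666-151044915, minus strand:
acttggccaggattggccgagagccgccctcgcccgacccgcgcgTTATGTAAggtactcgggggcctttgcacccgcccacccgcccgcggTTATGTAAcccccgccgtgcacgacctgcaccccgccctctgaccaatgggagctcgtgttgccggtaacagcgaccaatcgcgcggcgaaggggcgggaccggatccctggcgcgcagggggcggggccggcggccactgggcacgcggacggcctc
Nr1d1, chr11:98775378-98775627, minus strand:
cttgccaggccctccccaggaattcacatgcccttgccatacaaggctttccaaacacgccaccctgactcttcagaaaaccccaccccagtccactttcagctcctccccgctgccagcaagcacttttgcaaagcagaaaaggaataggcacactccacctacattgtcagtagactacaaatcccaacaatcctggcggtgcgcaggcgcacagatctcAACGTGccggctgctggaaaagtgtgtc

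The libraries held 12925869 to 16484772 counts, and 3 counts, the most that a count of 0 allows, correspond to 0.174 to 0.221 CPM (counts scaled to the size of the library, with edgeR's TMM factors). Intervals and floors given here cover counting error only. All 10 members passed the low-count filter with the 12810 genes tested by age. Each member had at least 18 counts in each library. Nkx2-3 itself had 21 to 31 counts in a library, and the part of the gene that was removed is not named in the labels. The share of counts from Rn45s, which encodes the precursor of ribosomal RNA, was 3.69%, 1.40%, 2.24% and 3.38% in replicates 1, 2, 3 and 4. It was thus higher in replicates 1 and 4 than in replicates 2 and 3, the same division of the libraries that the clock genes show below, and its part in these results was not tested.

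All 10 clock genes divided the 4 libraries into the same pairs, across the ages, except that 4 did not with total counts as the scaling. Arntl, Npas2, Clock and Cry1 were each higher in both 8-week replicate 1 and 32-week replicate 4 than in the other 2 libraries, an order held by 20.9% of all tested genes. Cry2, Per1, Per2, Per3, Nr1d1 and Nr1d2 were each higher in both 8-week replicate 2 and 32-week replicate 3, an order held by 20% of all tested genes. Replicates 3 and 4 had equal counts of Per1 (61 in each) and of Per2 (32 in each), so their order there rests on the scaling alone. No member had both 32-week libraries above both 8-week libraries, against 14.4% of tested genes, and none had both 8-week libraries above both 32-week libraries, against 14.2%. With RLE size factors or with the 10 most abundant genes left out, each member kept this division. With total counts only, Cry2, Per1, Per2 and Nr1d2 lost it. That scaling moved the median log2 ratio of all tested genes, replicate 3 over replicate 4, to -0.294, and 39.4% and 6.6% of tested genes then held the first and the second order. Checks of the division under other scalings were added after seeing the data.

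**Figure D1:**
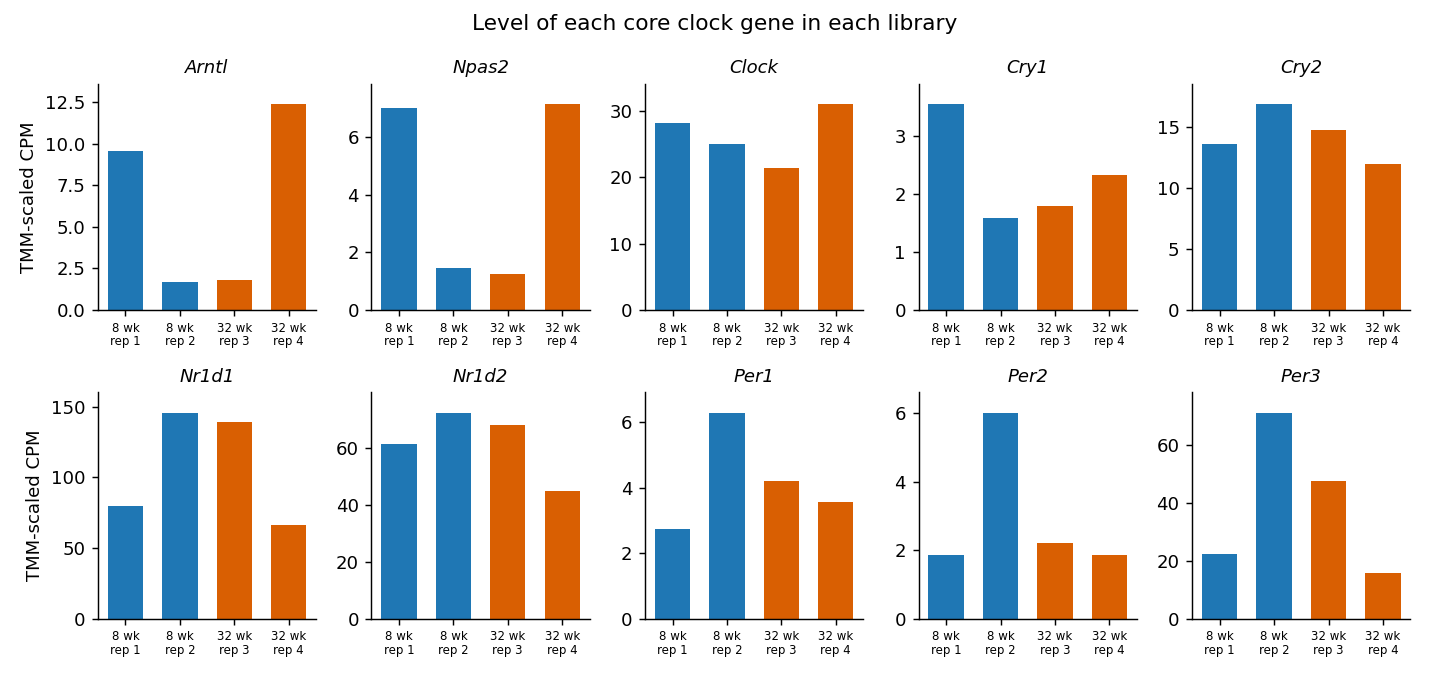
TMM-scaled CPM (vertical axes, each from 0) of the 10 core clock genes in the 4 libraries (horizontal axes; blue bars 8 weeks, orange bars 32 weeks, 1 library a bar). Arntl, Npas2, Clock and Cry1 are highest in the outer bars (replicates 1 and 4), and the other 6 genes are highest in the inner bars (replicates 2 and 3).

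Arntl, the activator on which the loop depends (NCBIM37 chromosome 7, 120350979 to 120457636, plus strand), was counted 130, 24, 26 and 213 times in replicates 1, 2, 3 and 4. This came to 9.59 and 1.66 CPM in the 8-week and 1.80 and 12.4 CPM in the 32-week libraries. Each age thus held 1 high and 1 low library, with a 5.79-fold gap at 8 weeks and a 6.89-fold gap at 32 weeks. Npas2, the paralog of Clock (chromosome 1, 39250576 to 39420079, plus strand), had 7.01 and 1.45 CPM in the 8-week and 1.24 and 7.15 CPM in the 32-week libraries, from 18 to 123 counts. It repeated the pattern of Arntl, with gaps of 4.84-fold and 5.75-fold. Clock, the partner of Arntl (chromosome 5, 76639992 to 76733817, minus strand), had 28.3 and 25.1 CPM in the 8-week and 21.5 and 31.1 CPM in the 32-week libraries. Its highest and lowest libraries stood 1.45-fold apart, and 8-week replicates 1 and 2 differed by no more than counting error (log2 ratio -0.17, replicate 2 over replicate 1, 95% interval -0.38 to 0.04).

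The difference between the highest and lowest library was 2.90 log2 units for Arntl and 2.52 for Npas2, larger than in 99.3% and 98.9% of tested genes, and the median gene spanned 0.55. For Clock it was 0.53, larger than in 47.7% of tested genes. These ranks describe values that were known when the genes were picked.

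Among the repressors, Nr1d1 (chromosome 11, 98629246 to 98636647, minus strand) had 79.8 and 145.7 CPM in the 8-week and 139.5 and 66.2 CPM in the 32-week libraries, from 1082 to 2110 counts. It was lowest in the libraries where Arntl was highest, with gaps of 1.82-fold within 8 weeks and 2.11-fold within 32 weeks. Its exons share 263 bases with Thra on the opposite strand, which stood at 4.28 to 5.95 CPM. Strand use in the counting is not stated, and the part of reads from the shared bases in the Nr1d1 counts was not tested. Nr1d2, the second REV-ERB receptor (chromosome 14, 19036568 to 19071641, minus strand), had 61.4 and 72.2 CPM in the 8-week and 67.9 and 44.8 CPM in the 32-week libraries. The Nr1d2 gap was smaller, 1.18-fold within 8 weeks and 1.51-fold within 32 weeks.

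Per3, a period gene with a weaker repressor role than its paralogs (chromosome 4, 150377761 to 150418774, minus strand), had 22.4 and 71.1 CPM in the 8-week and 47.6 and 15.9 CPM in the 32-week libraries, from 274 to 1030 counts. Its spread was the widest of the dusk genes, 4.46-fold from lowest to highest library and more than in 98% of tested genes. Per2, one of the main partners of the CRY repressors (chromosome 1, 93312561 to 93355907, minus strand), had 25, 87, 32 and 32 counts in replicates 1 to 4. This came to 1.84 and 6.01 CPM in the 8-week and 2.21 and 1.86 CPM in the 32-week libraries, so that 8-week replicate 2 alone stood high. Per1, a period gene that also responds acutely to hormones (chromosome 11, 68908719 to 68923462, plus strand), had 37, 91, 61 and 61 counts, or 2.73 and 6.28 CPM in the 8-week and 4.22 and 3.55 CPM in the 32-week libraries. The 32-week libraries did not differ beyond counting error in Per1 or Per2 (log2 ratio 0.25 for each, replicate 3 over replicate 4, 95% interval -0.29 to 0.79 for Per1 and -0.50 to 1.003 for Per2).

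The cryptochromes took opposite sides of the division. Cry1, the stronger repressor (chromosome 10, 84594447 to 84647799, minus strand), had 48, 23, 26 and 40 counts in replicates 1 to 4, or 3.54 and 1.59 CPM in the 8-week and 1.80 and 2.33 CPM in the 32-week libraries. It was 2.23-fold higher in replicate 1 than in replicate 2, beyond counting error (log2 ratio -1.16, replicate 2 over replicate 1, 95% interval -1.94 to -0.41). Its 32-week libraries lay within counting error of each other (log2 ratio -0.37, replicate 3 over replicate 4, 95% interval -1.14 to 0.38). Cry2 (chromosome 2, 92243803 to 92274200, minus strand) had 13.6 and 16.8 CPM in the 8-week and 14.7 and 11.9 CPM in the 32-week libraries. Its whole span was 1.41-fold, larger than in 43.6% of tested genes. It shares 295 exonic bases with the antisense transcript D930015M05Rik, which had 3 to 5 counts in each library.

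Per length, Nr1d1 was the most abundant member, at a mean of 34.5 CPM per kb of exon over the 4 libraries, followed by Nr1d2 at 12.3 CPM per kb. The libraries of Nr1d1 (21.2 to 46.6 CPM per kb) lay above all of Nr1d2 (8.95 to 14.4), and those of Nr1d2 above all of Per3 (1.66 to 7.40). Below these, means per kb were 4.09 for Per3, 2.997 for Clock, 2.26 for Cry2, 2.17 for Arntl, 0.880 for Npas2, 0.768 for Cry1, 0.745 for Per1 and 0.510 for Per2, and the libraries of each neighbouring pair in that order overlapped. The place of Arntl depended on the library. It stood at 3.28 and 4.24 CPM per kb in replicates 1 and 4, above Per3 at 2.34 and 1.66, and at 0.567 and 0.614 CPM per kb in replicates 2 and 3, below Per3 at 7.40 and 4.96.

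Within each age, 1 library carried the higher dawn genes and the other the higher dusk genes. Clock at 8 weeks, and Per1 and Per2 at 32 weeks, differed by no more than counting error. For all 10 members, the log2 ratio of replicate 2 over replicate 1 at 8 weeks had the same sign as that of replicate 3 over replicate 4 at 32 weeks, as in 55.7% of tested genes. For 6 of them, Arntl, Npas2, Cry2, Per3, Nr1d1 and Nr1d2, both ratios lay beyond counting error, as in 11.9% of tested genes. With total counts only, 8 members kept 1 sign in both ages, and Clock took the place of Cry2 among the 6 beyond counting error, against 19.8% of tested genes. Arntl and Npas2 were the members lower by over 2-fold in both replicate 2 and replicate 3 than in the other library of their age, as 0.734% of tested genes were. Per3 was the member higher by over 2-fold in both (3.17-fold at 8 weeks and 2.99-fold at 32 weeks), as 0.71% of tested genes were. Nr1d1 lay just inside that threshold at 32 weeks (2.11-fold) and just outside it at 8 weeks (1.82-fold).

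**Figure D2:**
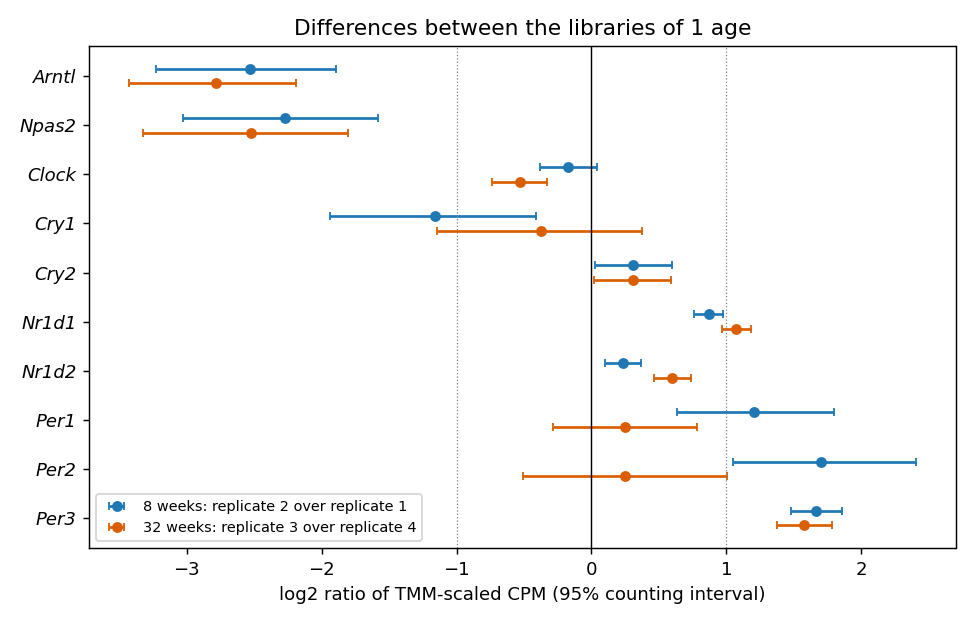
Log2 ratio of TMM-scaled CPM between the 2 libraries of each age (horizontal axis) for the 10 core clock genes (vertical axis); points are ratios, bars 95% counting intervals from exact binomial limits, dotted lines 2-fold. Arntl and Npas2 lie beyond -2 in both ages, Per3 beyond 1.5 in both, and Per1 and Per2 lie past 2-fold at 8 weeks only.

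Over all 6 pairs of libraries, the members separated the pairs that cross the division. Between 8-week replicates 1 and 2, 6 of 10 members differed by over 2-fold in either direction, against 10.1% of tested genes. Between 32-week replicates 3 and 4, 4 of 10 did, against 4.75%. Across the ages, 5 of 10 differed by over 2-fold between replicates 2 and 4 (9.23% of tested genes) and 3 of 10 between replicates 1 and 3 (4.42%). None did between replicates 1 and 4 (3.07%), and Per2 alone did between replicates 2 and 3 (7.02%). The median member differed by 1.18 and 0.56 log2 units within 8 and 32 weeks, where the median tested gene differed by 0.36 and 0.20. Between replicates 2 and 4 the median member differed by 0.98, against 0.34 for the median tested gene. The values between replicates 1 and 3 were 0.72 and 0.21. Between replicates 1 and 4 the median member differed by 0.32, still more than the median tested gene at 0.19. Between replicates 2 and 3 it differed by 0.21, less than the median tested gene at 0.32.

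Opposite-phase genes ordered the libraries in opposite ways in most comparisons. Over the 15 pairs of a dawn gene with a dusk gene, 74 of 90 comparisons of 2 libraries ran in opposite directions (82.2%). Gene pairs within the dawn group ran in opposite directions in 2 of 18 comparisons (11.1%) and pairs within the dusk group in 6 of 60 (10%). All tested genes set against Arntl gave 49.6%. The comparisons share genes and libraries and are a description. For pairs of libraries that cross the division, the direction followed from the division itself, both between the groups and within them. Only replicates 1 against 4 and replicates 2 against 3 were free to differ, so these shares largely restate the division. Of the 15 dawn-by-dusk gene pairs, 3 ran in opposite directions in every pair of libraries. Arntl ordered the libraries as replicate 4, 1, 3 and 2 from high to low, an order held by 6.23% of tested genes. The exact reverse was held by Cry2, Per3, Nr1d1 and Nr1d2, 4 of 10 members, against 6.48% of tested genes. Npas2 and Clock exchanged the 2 low libraries, and Per1 and Per2 exchanged their 2 low libraries, replicates 1 and 4. With total counts only, 60 of 90 comparisons ran in opposite directions (66.7%). Where only differences beyond counting error in both genes were used, 49 of 49 did. Most of these 49 cross the division, where the direction was already given. Between replicates 2 and 3 no dawn gene differed beyond counting error, and between replicates 1 and 4 Arntl alone did. The same share over all tested genes is not given here.

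Cry1 ran opposite to the dusk genes in 27 of 30 comparisons (90%) and opposite to the dawn genes in 5 of 18 (27.8%). Cry2 ran opposite to the dawn genes in 16 of 18 (88.9%) and opposite to the dusk genes in 2 of 30 (6.67%). These shares too largely follow from the side of the division that each cryptochrome took.

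Ratios between members within a library do not depend on the scaling. Nr1d1 had 8.32 counts for each Arntl count in 8-week replicate 1 and 87.9 in replicate 2, and 77.6 in 32-week replicate 3 and 5.35 in replicate 4. Per3 had 2.34 and 42.9 counts for each Arntl count at 8 weeks and 26.5 and 1.29 at 32 weeks. Both ratios were low in replicates 1 and 4 and high in replicates 2 and 3, with no overlap of the 2 ranges. The mean log2 CPM of the 3 dawn genes minus that of the 5 dusk genes was -0.19 and -2.98 at 8 weeks and -2.54 and 0.16 at 32 weeks. The value of replicate 4 turned negative with medians, without Clock or without Per1, and stayed above those of replicates 2 and 3. The means of the ages, -1.58 and -1.19, differed by 0.39, less than the pooled SD of 1.94 within an age (n = 2 libraries at each).

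The libraries on 1 side of the division were close to each other but not equal. In replicate 2 the 3 Per genes stood above replicate 3 beyond counting error, with ratios of 2.72 for Per2 (log2 1.44, 95% interval 0.84 to 2.07), 1.49 for Per3 and 1.49 for Per1. Nr1d1 and Nr1d2 did not differ there beyond counting error, with ratios of 1.04 and 1.06. Between replicates 1 and 4, Per3, Nr1d1 and Nr1d2 were higher in replicate 1 beyond counting error (1.41-fold, 1.21-fold and 1.37-fold), and Arntl was higher in replicate 4 (log2 ratio -0.37, replicate 1 over replicate 4, 95% interval -0.70 to -0.05). Genes of the glucocorticoid response and of the immediate early response, to which Per1 and Per2 can also respond, are given beside them. Of 10 tested glucocorticoid response genes, 4 were higher in both replicates 1 and 4 and 4 in both replicates 2 and 3 (5 and 2 with total counts as the scaling), where 40.9% of tested genes took either order. Sgk1 and Zbtb16 differed by over 2-fold between the 8-week libraries (10.1% of tested genes) and Cdkn1a alone between the 32-week libraries (4.75%), 2.45-fold higher in replicate 4. Sgk1 had 6.20 and 24.03 CPM in the 8-week and 6.91 and 6.75 CPM in the 32-week libraries, high in replicate 2 alone as Per2 was. Zbtb16 was lower there, with 2.73 and 1.24 CPM at 8 weeks. Of 9 tested immediate early genes, Egr1 alone differed by over 2-fold between the 8-week libraries, at 2.58 and 5.73 CPM. The summed level of the glucocorticoid list was 247.4 and 289.4 CPM in the 8-week and 289.5 and 254.8 CPM in the 32-week libraries, and that of the immediate early list 216.4 and 226.6 CPM in the 8-week and 183.2 and 220.7 CPM in the 32-week libraries. The part of either response in the Per values was not tested.

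No clock gene passed the comparison of 32 with 8 weeks. With edgeR's quasi-likelihood test 0 of 10 members, and 0 of the 12810 genes tested (0%), reached a Benjamini-Hochberg adjusted p of 0.05. No member had an unadjusted p under 0.05, against 174 genes in all, and DESeq2 and limma-voom called 0 members as well, with 0 at an unadjusted p under 0.05. Under other settings no member was called, but 2 had an unadjusted p under 0.05 with total counts only, 1 with no low-count filter, and 3, 2 and 2 without replicates 1, 3 and 4. Log2 fold changes were positive for Arntl and Npas2 and negative for the other 8 members, and the 95% interval of each included 0. The largest was that of Per2 (-0.95, SE 0.54, 95% interval -2.23 to 0.32, edgeR adjusted p = 0.9991), which rested on 8-week replicate 2 and was 0.14 without it. Arntl had a log2 fold change of 0.36 with an SE of 0.92 (95% interval -1.79 to 2.50), and that of Nr1d1 was -0.13 (SE 0.41, 95% interval -1.08 to 0.81). These intervals leave room for changes of over 2-fold in either direction for Arntl. That of Clock lay nearest to 0, at -0.02 (SE 0.23, 95% interval -0.56 to 0.52), and Cry2 had the smallest SE of the members, 0.22, with a log2 fold change of -0.19.

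The median log2 fold change over the members was -0.21, and that over all tested genes -0.01. The median SE was 0.44 for the members and 0.26 for all tested genes. Leaving out 1 library turned the sign of the fold change in 9 of the 10 members, with Cry2 the exception. For Arntl the value was 2.11, -0.40, 1.15 and -1.63 with replicates 1, 2, 3 and 4 left out in turn. No member passed in these fits, in which the lone library of an age is assumed to vary like the others, and the lowest adjusted p was that of Per2 without 8-week replicate 1 (edgeR adjusted p = 0.05468). A single gene tested by exact permutation of 2 against 2 libraries could not go below p = 0.333.

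**Figure D3:**
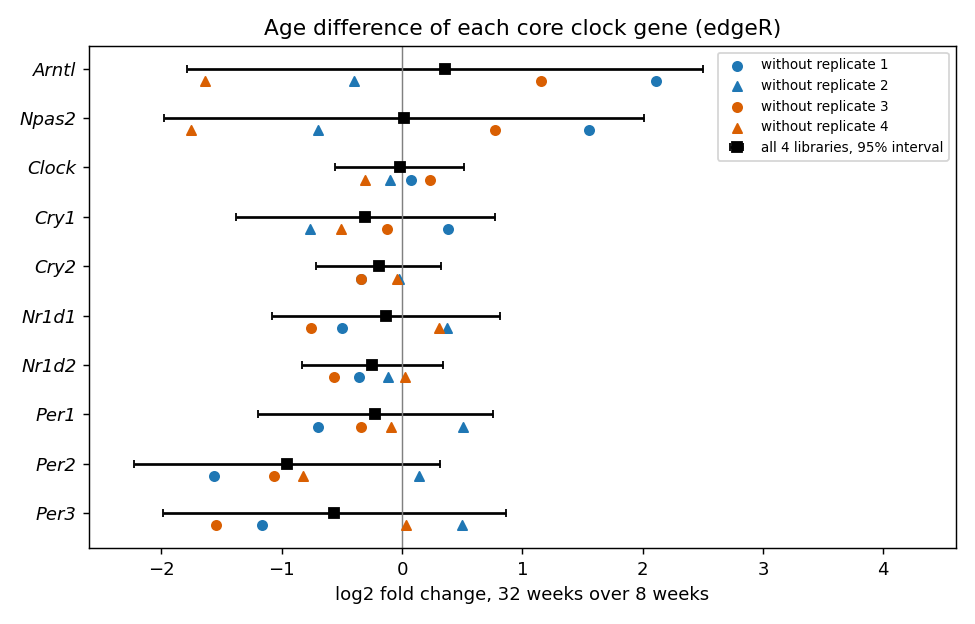
Log2 fold change of each core clock gene, 32 over 8 weeks (horizontal axis), with all 4 libraries (black squares, 95% intervals from edgeR) and with each library left out (colored symbols). The intervals of all 10 genes include 0, and leaving out replicate 2 or 4 moves Arntl and Npas2 below 0.

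Other genes of the loop did not share the division as a set. Of 20 listed kinases, ubiquitin ligase parts, ROR receptors, corepressors and related regulators, 19 were tested and 0 were called by age, with 6 positive and 13 negative fold changes (median -0.12). Replicates 1 and 4 both lay above the others in 4 of the 19 and below them in 3, near the shares of all tested genes. Ciart (CHRONO), a repressor of the ARNTL pairs, was the single one that differed by over 2-fold in both ages, and it is named after its values were seen. It had 12, 71, 58 and 15 counts in replicates 1 to 4, or 0.886 and 4.90 CPM in the 8-week and 4.01 and 0.873 CPM in the 32-week libraries, the side of the dusk genes. Its window holds 3 E-boxes, in capitals, the most of the genes searched.

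Ciart, chr3:95882229-95882478, minus strand:
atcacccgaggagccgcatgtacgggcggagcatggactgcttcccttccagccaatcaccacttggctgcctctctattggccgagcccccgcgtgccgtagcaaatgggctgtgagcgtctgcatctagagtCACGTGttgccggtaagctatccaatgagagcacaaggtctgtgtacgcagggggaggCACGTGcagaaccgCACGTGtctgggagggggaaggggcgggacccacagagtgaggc

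Rora, a receptor that activates Arntl through the elements that the NR1D receptors occupy, did not share the division of Arntl. It had 43.9 and 36.7 CPM in the 8-week and 41.5 and 41 CPM in the 32-week libraries. Csnk1d and Csnk1e, the kinases that phosphorylate PER proteins, spanned 39.4 to 47.2 CPM and 11.3 to 14.4 CPM.

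Most of the 10 listed outputs of the clock divided the libraries as the dusk genes did. Of 10 output genes tested, 9 (6 with total counts as the scaling) had both replicates 2 and 3 above replicates 1 and 4. That order was held by 20% of tested genes (6.6% with total counts). The reverse order was held by 1 of the 10, against 20.9% of tested genes. By age 0 were called (2 positive and 8 negative fold changes, median -0.12). Some gaps were small, as for Por at 15.3 and 14.7 CPM in replicates 3 and 4. The 9 were Dbp, Tef, Hlf, Bhlhe40, Bhlhe41, Wee1, Nampt, Usp2 and Por. Tef, a PAR bZIP activator, had 42.6 and 86.4 CPM in the 8-week and 83.1 and 34 CPM in the 32-week libraries, and Bhlhe40 (DEC1), an E-box repressor, had 23.2 and 55.1 CPM in the 8-week and 44.9 and 14.8 CPM in the 32-week libraries. Nfil3, a repressor of the D-box and a target of the NR1D receptors, was the reverse one, with 11.8 and 2.42 CPM in the 8-week and 2.42 and 12.6 CPM in the 32-week libraries. Nfil3 and Dbp have means below 10 CPM and are named after their values were seen. Dbp, the PAR bZIP activator of D-boxes, had 1.99 and 5.11 CPM in the 8-week and 9.54 and 1.98 CPM in the 32-week libraries. It was lower in replicate 2 than in replicate 3 (ratio 0.536, log2 -0.90, 95% interval -1.33 to -0.48), while the Per genes were higher there.

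**Figure D4:**
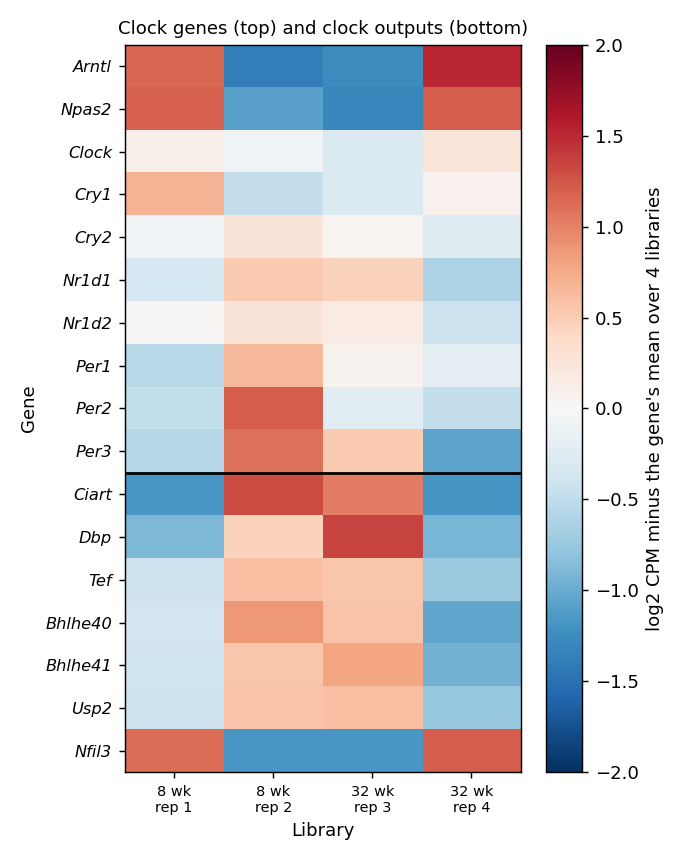
Log2 CPM of each gene minus its mean over the 4 libraries (color scale from -2 to 2, red above and blue below) for the core clock genes (above the line) and 7 further clock genes (below the line) in each library (columns). Arntl, Npas2 and Nfil3 are red in replicates 1 and 4, and most of the other genes are red in replicates 2 and 3.

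Profiles like those of Arntl and Nr1d1 were looked for among 6486 other tested genes of at least 10 CPM, by the root mean square difference of centred log2 CPM over the 4 libraries. The genes nearest to Arntl were Scgb2b12 (0.48), Slc25a34 (0.54), Scgb2b7 (0.56), Scgb1b3 (0.57) and Scgb2b20 (0.61). The 4 secretoglobins are salivary secretory proteins with close copies, whose counts are uncertain, and Scgb2b12 had 1487 and 133.2 CPM in the 8-week and 304.2 and 1078 CPM in the 32-week libraries. Npas2 (0.21) and Nfil3 (0.19), which fall short of 10 CPM, were nearer to Arntl than any of the 5. Among the genes nearest to Nr1d1 were Plin2 (0.069), a lipid droplet protein, Tmem53 (0.074), Rtp4 (0.075) and Trpv6 (0.079), a calcium channel. With 4 libraries many genes have similar profiles, and these distances carry no test.

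Markers of some cell types also took the order of the division. In bulk tissue, fewer cells of a type and less RNA per cell cannot be told apart. Of the macrophage markers 7 of 8 tested, of the T and NK cell markers 4 of 4, of the B and plasma cell markers 3 of 5, of the mucous acinar markers 5 of 7 (3 with RLE) and of the adipocyte markers 4 of 5 were higher in both replicates 1 and 4, on the side of Arntl, against 20.9% of tested genes. That order counts differences of any size. Differences over 2-fold within 8 and within 32 weeks were held by 2 and 0 macrophage and 4 and 1 T and NK cell markers. They were held by 4 and 1 B and plasma cell, 1 and 0 mucous acinar and 3 and 3 adipocyte markers. The shares of all tested genes were 10.1% and 4.75%. The mucous acinar markers Agr2 and Creb3l1 were low in replicate 2 alone. Agr2 had 49.6 and 49.7 CPM in replicates 3 and 4, and Creb3l1 had 699.7 and 700.2 CPM. Summed levels in replicates 1 to 4 were 490.4, 308.5, 369.5 and 446.1 CPM for the macrophage list and 13.3, 3.94, 5.32 and 10.5 CPM for T and NK cells. They were 1623, 528.7, 1278 and 1444 CPM for B and plasma cells, and 74.7, 28.7, 31.7 and 41.9 CPM for adipocytes. In replicate 2 the B and plasma cell sum was led by Xbp1, at 451.2 CPM, and Jchain had 73.7 CPM there against 920.2 in replicate 1. The adipocyte sum was led by Fabp4, at 35.9, 20.9, 29.7 and 30.8 CPM. In replicates 1 to 4 Cfd had 172, 32, 1 and 93 counts and Car3 had 274, 40, 1 and 51. Serous and demilune markers (5 of 9) and duct markers (5 of 10, or 3 with total counts as the scaling) were higher in both replicates 2 and 3, against 20% of tested genes. Differences over 2-fold within 8 and within 32 weeks, in either direction, were held by 4 and 4 serous and demilune and 3 and 1 duct markers. In both ages and in the same direction they were held by 3 serous and demilune and 0 duct markers. Smgc and Lyz2, which were listed with the serous and demilune genes, had the opposite order, as had 2 duct markers with total counts as the scaling. Smgc stood at 142100 and 73280 CPM in the 8-week and 41970 and 125900 CPM in the 32-week libraries. The serous and demilune list summed to 314600, 431200, 522700 and 318900 CPM in replicates 1 to 4, and the duct list to 1345, 1565, 1476 and 1456 CPM. Krt18 led the duct sum, at 754.8, 633.4, 789.3 and 859.4 CPM. The 3 duct markers past 2-fold within 8 weeks, Krt19, Fxyd2 and Foxi1, were each higher in replicate 2 than in replicate 1. Fxyd2 was high in replicate 2 alone, at 102.2, 364.6, 115.6 and 112.3 CPM in replicates 1 to 4. The mucous acinar list, which marks the main cell type of the gland, was present in each library, at 13260, 14560, 21430 and 17910 CPM in sum in replicates 1 to 4. That sum was led by the mucin Muc19 and did not take the division. Of the other lists, myoepithelial markers were higher in both replicates 1 and 4 in 2 of 7 and in both replicates 2 and 3 in 0, endothelial markers in 1 and 1 of 8, fibroblast markers in 1 and 3 of 8, Schwann and nerve markers in 2 and 1 of 6, and skeletal muscle markers in 0 and 0 of 2. The part of cell composition in the clock gene levels was not tested.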

How the data were processed

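RNA sequencing counts were analysed from 4 libraries of the female Nkx2.3-/- sublingual gland, 2 at 8 weeks and 2 at 32 weeks. Per the labels' protocols, flash-frozen glands were extracted with Trizol and 1 ug of total RNA entered the Illumina TruSeq RNA kit. Per the submitters' processing notes, the authors used STAR and the build mm9. The sources used here do not name the counting tool, annotation or strand setting. The authors deposited raw read counts for each gene symbol, as whole numbers without normalization.

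Computed here were TMM-scaled CPM and edgeR 4.0.16's quasi-likelihood test of age (R 4.3.3, default low-count filter, Benjamini-Hochberg adjustment over 12810 genes, threshold 0.05), on the counts of all genes. Ratios of 2 libraries have exact binomial 95% intervals. The alternatives were RLE, total counts, 10 abundant genes left out, no filter, at least 1 CPM in 3 libraries, DESeq2 1.42.0, limma-voom (limma 3.58.1) and each library left out. Scripts were tested on simulated data. Exonic lengths and gene positions come from GENCODE vM1 on NCBIM37, the assembly that mm9 names.

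The members and lists were chosen with earlier results of these data known. The genes named are the 10 members, listed clock loop and output genes of at least 10 CPM differing by over 2-fold within both ages, and the 5 genes nearest to Arntl and to Nr1d1. Other names were chosen after their values were seen. Some genes that this rule or the lists name are not reported here.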

Additional observations from a re-analysis of the deposited data

How the results depend on the processing

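Of 233 values recomputed under the alternatives, 202 kept their direction and their side of the threshold or, where untested, stayed within their spread. No member was called by age under any alternative run. The count of genes called by age, 0 in edgeR, was 10 with total counts only, 7 with no low-count filter and 3 in DESeq2, and 6 to 285 with 1 library left out (285 without 8-week replicate 1), so it rests on single libraries. Fold changes (log2) with each library left out in turn ran from -1.63 to 2.11 for Arntl, -1.75 to 1.55 for Npas2, -0.307 to 0.229 for Clock, -0.765 to 0.383 for Cry1, -0.695 to 0.509 for Per1, -1.56 to 0.144 for Per2, -1.54 to 0.502 for Per3, -0.758 to 0.37 for Nr1d1 and -0.566 to 0.0268 for Nr1d2. Npas2, at 0.01 in edgeR, was -0.00861 with total counts only, -0.00938 in DESeq2 and -0.000963 in limma-voom. With total counts only the log2 ratio of replicate 3 over replicate 4 was -0.813 for Clock, 1.3 for Per3, 0.792 for Nr1d1 and 0.316 for Nr1d2, because that scaling shifts all genes. The dawn minus dusk difference in replicates 1 to 4 was -1.23, -5.42, -4.73 and -0.363 with medians in place of means, -0.78, -4.32, -3.82 and -0.416 without Clock, and -0.777, -3.55, -3.12 and -0.298 without Per1. The division of the libraries was held by 6 members with total counts only, and by 10 with TMM, with RLE and with the 10 most abundant genes left out. Opposite library order ran from 77.8% to 86.7% with 1 library left out. No paired analysis was possible because the ages share no replicate number. The low libraries of Arntl, Npas2 and Cry1 held 18 to 26 counts each, and the log2 interval between those of Arntl was -0.98 to 0.741, so smaller differences there were not detectable at this depth.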

Other observations

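Temperature-responsive transcripts, some of which cycle with body temperature, were looked at as a further group. The 2 cold-inducible genes did not take the division of the clock genes. Cirbp, a cold-inducible RNA-binding protein, had 24.6 and 39.01 CPM in the 8-week and 30.9 and 54.7 CPM in the 32-week libraries, and Rbm3, its relative, had 44.9 and 47.7 CPM in the 8-week and 56.6 and 48.9 CPM in the 32-week libraries. Of 8 heat shock genes tested, 3 were higher in both replicates 1 and 4 and 1 was higher in both replicates 2 and 3 (5 and 0 with total counts as the scaling), where 40.9% of tested genes took either order (39.4% and 6.6% with total counts). The heat shock list summed to 643.2 and 582.1 CPM in the 8-week and 574.6 and 587.9 CPM in the 32-week libraries.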
